A study of Mus musculus with 8 samples.

Results

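A set of 9 genes of Wnt signalling was followed through the ascending aorta of mice with mucopolysaccharidosis VII (MPS VII), a lysosomal storage disease of beta-glucuronidase loss in which the aorta can widen. They are the secreted Wnt regulators Wif1, Sfrp1, Sfrp2, Sfrp4, Frzb, Dkk2 and Dkk3 and the Wnt targets Ccn4 and Axin2, 9 of the 16110 genes named on the array. All 12 probes whose annotated symbol is one of these names were taken, out of 25697 probes in all. The genes had been selected on intensities from the same 8 arrays, so their differences between groups are given as a description and without a test.

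RNA of whole ascending aorta was hybridised to Illumina bead arrays, 1 array per mouse, and all mice were C57BL/6. The MPS VII group with a dilated aorta held 3 mice, a female of 7.8 months, a female of 9.1 months and a male of 6.0 months (replicates 1, 2 and 3). The MPS VII group without dilatation held 2 mice, a female of 5.8 months and a male of 6.7 months (replicates 1 and 2). The normal group held 3 mice, a female of 5.8 months, a male of 6.4 months and a female of 7 months (replicates 1, 2 and 3). The labels give the genotypes as MPS VII and normal, with no allele. The dilated group holds the 2 oldest mice.

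Wnt proteins are secreted signals that bind Frizzled receptors and the co-receptors Lrp5 and Lrp6 at the cell surface. In the canonical branch this stops the destruction complex, built on the scaffold Axin, from degrading beta-catenin, which then acts with Tcf and Lef factors on target genes. Secreted inhibitors act before that step: Wif1 and the Sfrp proteins, of which Frzb is one, bind Wnt ligands, whereas Dickkopf proteins such as Dkk2 bind the co-receptors.

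The stretches just upstream of the transcription start are shown for Wif1, the member furthest from normal in both MPS VII groups, and for Axin2, the member whose group means lay closest together among the 7 genes measured above background. Both are from RefSeq's GRCm38.p6, on the plus strand, Wif1 at chr10:121033754-121034003 and Axin2 at chr11:108920099-108920348, and run 5′ to 3′ to the base before the start. Capitals mark GGGCGG, the core of the GC box, on either strand.
Wif1: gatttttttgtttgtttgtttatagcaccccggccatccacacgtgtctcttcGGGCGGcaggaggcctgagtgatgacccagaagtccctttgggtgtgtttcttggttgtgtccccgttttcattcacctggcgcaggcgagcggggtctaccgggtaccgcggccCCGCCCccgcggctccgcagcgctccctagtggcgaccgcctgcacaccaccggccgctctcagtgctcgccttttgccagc
Axin2: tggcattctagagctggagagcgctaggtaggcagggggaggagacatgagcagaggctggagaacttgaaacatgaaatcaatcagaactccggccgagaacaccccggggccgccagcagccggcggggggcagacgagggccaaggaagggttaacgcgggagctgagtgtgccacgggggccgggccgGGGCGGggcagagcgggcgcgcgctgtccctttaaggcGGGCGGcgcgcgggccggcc
Promoter windows of 300 bases (250 before and 50 after the start) were at hand for 5 of the 9 genes, namely Wif1, Sfrp2, Frzb, Dkk2 and Axin2. GGGCGG or its reverse complement lies in 4 of these 5 windows and in 35.7% of 32851 mouse promoter windows. The core that Tcf and Lef factors bind was searched on both strands as CTTTGAT or as CTTTGTT, or with an ending in either of the forms CTTTGAA and also CTTTGTA, and lies in 0 of the 5 windows and in 16.9% of all windows. This says only that those letters are not in these windows.

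The values are the authors' deposited intensities on a linear scale, and some lie below 0, as values after background subtraction can. The background bound was set at 25.6, and 45.0% to 45.2% of the probes of each array exceeded it. Gusb, the gene defective in MPS VII, was at 197 ± 17.7 in dilated aorta (SD, n = 3), 118 ± 9.64 without dilatation (n = 2) and 1086 ± 90.2 in normal aorta (n = 3). The log2 difference from normal was -2.20 with dilatation (limma adjusted p = 0.000114) and -2.75 without (limma adjusted p = 6.59e-05). All 12 smooth muscle markers examined passed the filter on dim probes, among them Acta2, Tagln and Myh11. Array medians lay between 17.75 and 17.99. Some intensities recur exactly on different arrays, such as 7624.44 for Igfbp4 in dilated replicate 1 and for Dkk3 in normal replicate 1. Arrays set to a common distribution would show this, so the near-equal medians and shares above the bound say nothing of array quality. In whole tissue fewer cells of a type and less RNA per cell cannot be told apart.

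For 7 of the 9 genes a probe exceeded the bound on 2 or more of the 8 arrays, and these entered the fit of 10040 genes. The other two, Sfrp4 and Dkk2, lay below the bound on every array. The plot of all probes by array shows each value.

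**Figure D1:**
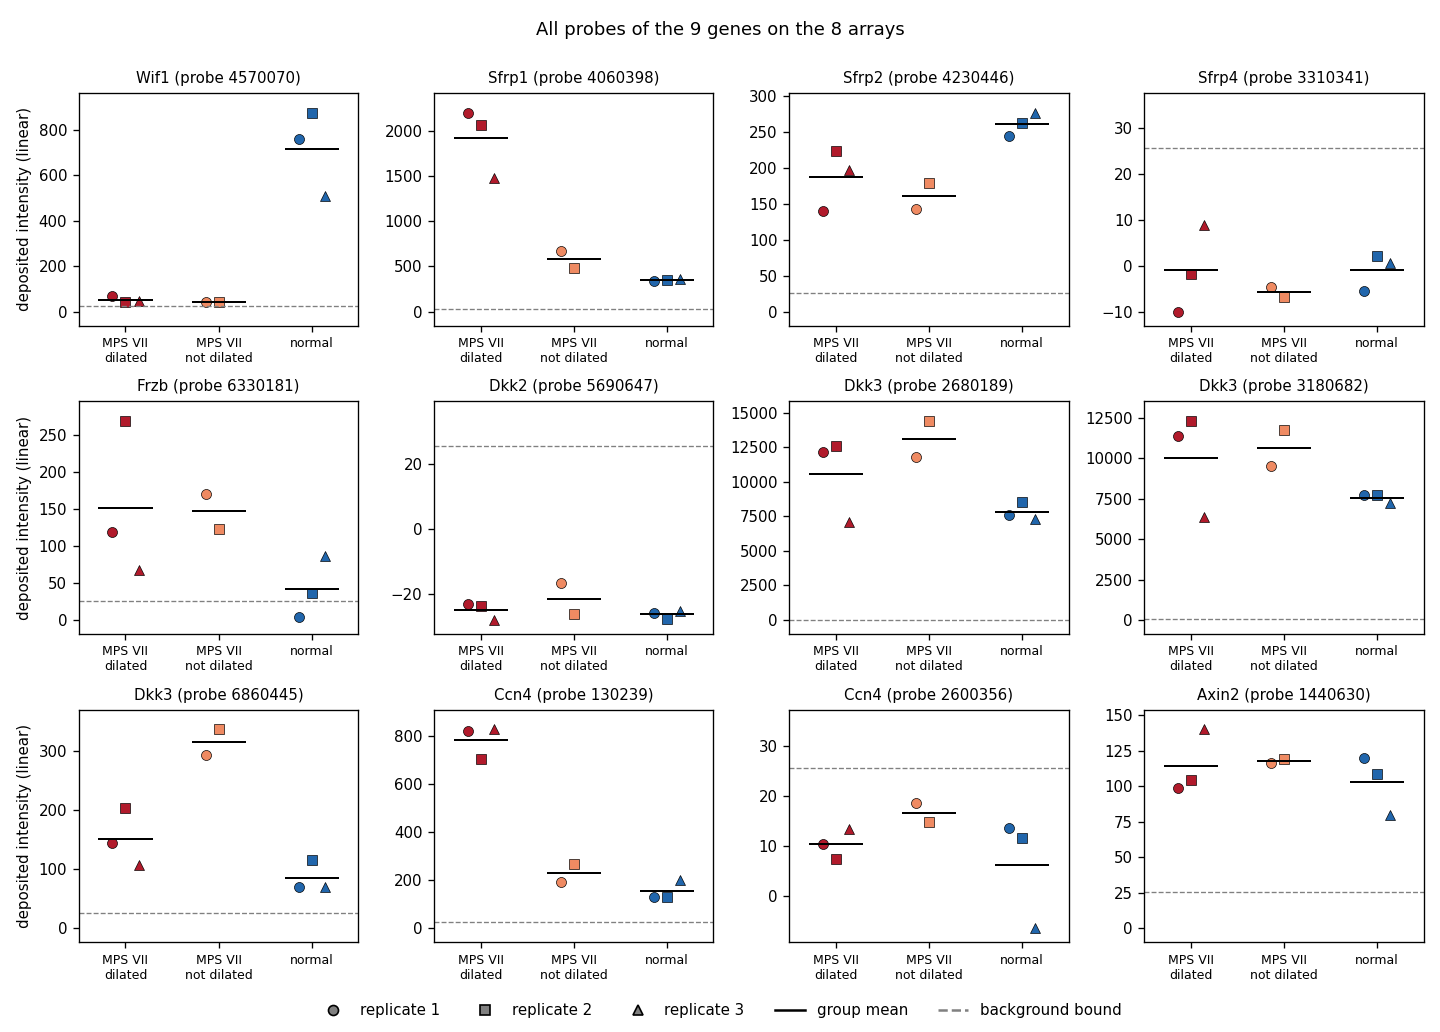
Deposited intensity (linear, own axis per probe) of all 12 probes of the 9 genes in MPS VII dilated, MPS VII not dilated and normal aorta. Points are mice, with 1 shape per replicate number, solid lines are group means and the dashed line is the background bound of 25.6. Wif1 is near the bound in all 5 MPS VII aortas, Sfrp1 and Ccn4 (probe 130239) are highest in the 3 dilated ones, and the probes of Sfrp4, Dkk2 and Ccn4 (2600356) stay below the bound.

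Wif1, a secreted protein that binds Wnt ligands and blocks their signal, was nearly lost from MPS VII aorta whether or not it was dilated. Its intensity was 69.6, 40.8 and 46.7 in dilated aortas, 41.2 and 44.5 in those without dilatation, and 760.2, 876 and 510.0 in normal aortas. Each of the 5 MPS VII values lay below each of the 3 normal values, and the 2 MPS VII groups overlapped. The mean of dilated aortas was 0.0732 times the normal mean, and that of MPS VII aortas without dilatation 0.0599 times. On the scale of log2(intensity + 50), which understates the change of a dim probe, the difference from normal was -2.88 with dilatation (SE 0.19) and -3.01 without (SE 0.22). Between dilated and not dilated it was 0.13 (SE 0.22). With an offset of 16 in place of 50, the difference from normal was -3.41 with dilatation and -3.60 without, and with an offset of 100 it was -2.40 with dilatation and -2.49 without.

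Sfrp1, a secreted Frizzled-related protein that binds Wnts through a domain like that of the receptor, was highest in dilated aorta. It measured 2197, 2067 and 1481 in the dilated aortas, 672 and 487 in MPS VII aortas without dilatation and 343, 353 and 359 in normal ones. The 3 groups did not overlap, in the order dilated, not dilated, normal. Dilated aorta was 2.27 above normal on the log2 scale (SE 0.17), a ratio of means of 5.45. Dilated aorta was also 1.64 above MPS VII aorta without dilatation (SE 0.19), a ratio of 3.31, and MPS VII aorta without dilatation was 0.63 above normal (SE 0.19). Without not dilated replicate 1 that last difference was 0.42. The lowest dilated value was that of replicate 3, both the only male and the youngest mouse of that group.

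Sfrp2, a second member of the same family, was somewhat lower in both MPS VII groups. It was at 140.4, 224 and 197 in dilated aortas, at 143 and 179 without dilatation and at 245, 264 and 277 in normal aortas. No MPS VII value reached the lowest normal one, while dilated and not dilated aortas overlapped. The log2 differences from normal were -0.41 (SE 0.16) with dilatation and -0.57 (SE 0.17) without. The value with dilatation was -0.26 without dilated replicate 1, whose intensity was the lowest of the 8.

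Frzb, also called Sfrp3, binds Wnts extracellularly and was first known from cartilage. It measured 118, 268 and 67.6 in dilated aortas, 171 and 123 in MPS VII aortas without dilatation and 4.51, 36.3 and 85.6 in normal ones. The dilated and normal groups overlapped, and 1 normal aorta lay below the background bound. The mean log2 difference from normal was 1.10 (SE 0.40) with dilatation and 1.18 (SE 0.44) without, the widest errors of the 7 genes. Without dilated replicate 2 the first of these was 0.71, without normal replicate 1 it was 0.77, with array weights it was 1.86 and with age as a covariate it was 0.52. Sfrp4, of the same family, lay between -9.84 and 9.02 on the 8 arrays, below the bound on each, so no level or difference can be given.

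Dkk3, a divergent Dickkopf protein, had 3 probes that differed in how far they set the groups apart. Probe 2680189 gave 12122, 12553 and 7076 in dilated aortas, 11769.6 and 14382 without dilatation and 7624, 8499 and 7319.5 in normal ones. The MPS VII aortas without dilatation lay above all normal ones, and in the dilated group 2 mice did and replicate 3 lay below them. The log2 difference from normal was 0.39 (SE 0.22) with dilatation, and 0.73 (SE 0.24) without dilatation. The value with dilatation was 0.66 without dilated replicate 3, 0.25 without dilated replicate 2 and 0.10 with age as a covariate. Probe 3180682 had the same arrangement, with differences from normal of 0.35 with dilatation and 0.49 without. Probe 6860445 had differences of 0.57 with dilatation and 1.45 without, and on it the dilated aortas, at 106.5 to 203, lay below those without dilatation, at 294 and 337. Of the 3 probes, only that one separated the 2 MPS VII groups. Dkk2, a Dickkopf that binds Lrp5 and Lrp6, lay between -28.1 and -16.8 on the 8 arrays and was not above background on any.

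Ccn4, a matricellular protein induced by Wnt1 and once named Wisp1, followed Sfrp1. Probe 130239 measured 821, 703 and 827 in dilated aortas, 191 and 265 in MPS VII aortas without dilatation and 131, 130.0 and 201 in normal ones. All 3 dilated values lay above the other 5, and the groups without dilatation and normal overlapped. Dilated aorta was 2.05 above normal on the log2 scale (SE 0.17), a ratio of means of 5.09, and 1.59 above MPS VII aorta without dilatation (SE 0.19), a ratio of 3.44. MPS VII aorta without dilatation was 0.45 above normal (SE 0.19), or 0.26 without its replicate 2 and 0.65 without its replicate 1. The further probe of Ccn4, 2600356, was below the bound on all 8 arrays, with values from -6.39 to 18.6.

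Axin2, the scaffold of the destruction complex that Wnt signalling itself induces and so a common readout of the canonical branch, was about level across the groups. Its values were 98.7, 104 and 140.1 in dilated aortas, 117 and 119 without dilatation and 120.3, 108.5 and 79.7 in normal ones. All 3 groups overlapped. The log2 difference from normal was 0.11 with dilatation (95% interval -0.23 to 0.44) and 0.15 without (-0.23 to 0.52), and that between dilated and not dilated was -0.04 (-0.41 to 0.33). Its sign against normal in dilated aorta was negative under array weights (-0.05) and without dilated replicate 3 or normal replicate 3 (down to -0.00775). The sign between dilated and not dilated also turned, with age as a covariate (0.13) and without dilated replicate 1 or 2 (up to 0.03).

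**Figure D2:**
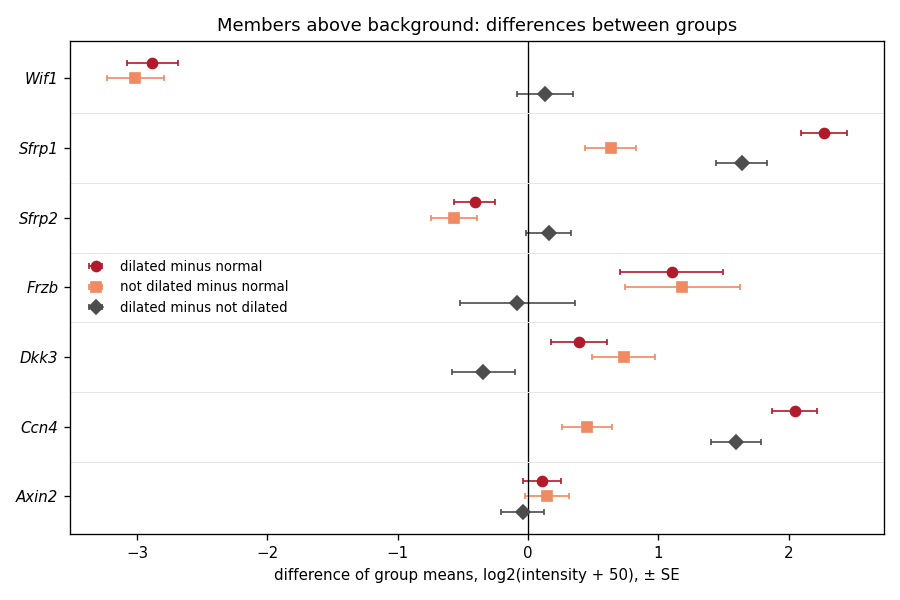
Differences of group means on the scale of log2(intensity + 50), with limma's SE as bars, for the 7 genes above background; circles are dilated minus normal, squares not dilated minus normal and diamonds dilated minus not dilated. Wif1 lies near -3 against normal in both MPS VII groups, while Sfrp1 and Ccn4 lie at 2.27 and 2.05 in dilated aorta and at 0.63 and 0.45 without dilatation.

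In the fit over all genes, 2 of the 7 passed a limma adjusted p under 0.05 as higher in dilated than in normal aorta. Of all genes 9.82% did. As lower 1 of the 7 passed, against 10.4% of all genes. Dilated aortas all lay above normal ones for 2 of the 7, against 17.9% of all genes, and all below for 2, against 24.6%. Without dilatation 0 of the 7 passed as higher (4.84% of all genes) and 1 as lower (5.17%). Over all genes 486 were called higher and 519 lower without dilatation, and 567 higher and 365 lower after cyclic loess. With dilatation 986 were called higher and 1046 lower, and 1121 higher and 849 lower after cyclic loess. The MPS VII aortas without dilatation all lay above normal ones for 3 of the 7 (20.2% of all genes) and all below for 2 (30.5%). Both comparisons use the same 3 normal aortas, and nothing is read from these counts, since these values chose the genes. The median log2 difference of the 7 was 0.39 with dilatation and 0.45 without, against -0.05 and -0.06 over all genes.

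Dilated and not dilated MPS VII aortas were compared to show what goes with the widening. In limma 0% of the 10040 genes passed the adjusted threshold (smallest adjusted p = 0.0509), and 910 had an unadjusted p under 0.05. Among the 7 genes, all dilated values lay above all values without dilatation for 2, Sfrp1 and Ccn4, where 13.7% of all genes did, and for 0 the reverse held, where 11.4% did. Log2 differences of the other five lay between -0.34 for Dkk3 and 0.16 for Sfrp2. Across the 19 alternatives the difference was 1.42 to 1.85 for Sfrp1 and 1.40 to 1.79 for Ccn4.

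The 7 profiles over the 8 arrays were compared by the root mean square (RMS) difference of their centred log2 values, a description in which mice of a group share their group's level. The values were not scaled, so genes that vary little lie close together whatever their direction, as Sfrp2 and Axin2 do (0.358). Sfrp1 and Ccn4 were the closest pair (0.319 log2 units), and Wif1 and Sfrp1 the farthest apart (2.29). Among all named genes, those nearest to Wif1 were Optc, an extracellular leucine-rich proteoglycan (0.375), Gusb itself (0.408) and Kcnab1, a potassium channel subunit (0.444), where the median gene lay 1.42 away. Optc averaged 96.8 in dilated aorta, 151 without dilatation and 881 in normal aorta. Those nearest to Ccn4 were Aldh3b1, an aldehyde dehydrogenase (0.219), Ccnd1, cyclin D1 (0.283), and the chemokine Cxcl16 (0.302), where the median gene lay 0.979 away.

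The rest of the pathway was followed in 102 further genes of Wnt signalling and the CCN family, of which 91 are on the array and 46 were above background. These lists too were chosen with earlier results of these data known. Against normal aorta, 5 rose and 8 fell in dilated aorta (limma adjusted p under 0.05), and 2 rose and 2 fell without dilatation. The balance of directions depended on normalization. After cyclic loess 6 rose and 4 fell in dilated aorta, and 2 rose and 0 fell without dilatation. In the main fit 28.3% of the 46 were called in either direction with dilatation and 8.70% without. Over all 10040 genes, 2032 were called in either direction with dilatation and 1005 without. By direction the shares of all genes were 9.82% higher and 10.4% lower with dilatation, and 4.84% higher and 5.17% lower without. For the 46 genes the median log2 differences were -0.00821 and -0.0259, against -0.05 and -0.06 over all genes. In the comparison of dilated with not dilated aorta 0 of the 46 passed.

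Among 21 ligand and ligand secretion genes 6 were above background. Wnt5a, a ligand best known for non-canonical signalling, measured 188, 155 and 93.5 in dilated aortas, 219 and 215 without dilatation and 259.6, 235 and 393 in normal ones. It fell in dilated aorta, with all 3 values below the normal ones (log2 difference -0.83, SE 0.22, limma adjusted p = 0.029), and was -0.35 without dilatation (limma adjusted p = 0.361). Wls, the carrier that brings Wnts to the cell surface, did not pass, at 0.29 with dilatation (limma adjusted p = 0.348) and 0.18 without (limma adjusted p = 0.642).

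Among 29 receptors and cofactors 14 were above background, of which 1 rose and 2 fell in dilated aorta and 1 rose without dilatation. These are 21.4% and 7.14% of the 14, near or below the shares of all genes given above. Kremen1, a receptor that binds Dickkopf proteins, measured 102, 115 and 106 in dilated aortas, 96.8 and 150.0 without dilatation and 62.5, 55.9 and 63.1 in normal ones. It rose in both MPS VII groups, by 0.51 with dilatation (limma adjusted p = 0.0301) and by 0.63 without (limma adjusted p = 0.036), with all 5 values above the normal ones. The Frizzled receptor gene Fzd2 fell to 382 ± 140.0 in dilated aorta, against 677 ± 91.5 in normal aorta (limma adjusted p = 0.0449). Ryk, a co-receptor of non-canonical signalling, fell to 2182 ± 170 in dilated aorta, against 2955 ± 314 in normal aorta (limma adjusted p = 0.0473). Without dilatation Fzd2 and Ryk were -0.46 and -0.41 from normal and did not pass (limma adjusted p = 0.272 and 0.0982).

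Of 10 other extracellular inhibitors 5 were above background and 1 rose in dilated aorta. That was Igfbp4, a binding protein of insulin-like growth factors that can also antagonise Wnt receptors, at 7774 ± 1543 in dilated and 4678 ± 643 in normal aorta (log2 difference 0.72, SE 0.17, limma adjusted p = 0.0188). Without dilatation it was 0.18 above normal and did not pass (limma adjusted p = 0.544).

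In the list of beta-catenin and its regulators 11 of 25 were above background, of which 4 fell and 0 rose in dilated aorta, and 2 fell without dilatation. Of all genes 10.4% fell with dilatation and 5.17% without. The median log2 difference of the 11 was -0.17 with dilatation. Csnk1e, a casein kinase that phosphorylates pathway proteins, fell by 0.55 (limma adjusted p = 0.0159) and Bcl9l, a coactivator of beta-catenin, fell by 0.62 (limma adjusted p = 0.0156). Dvl1, the Dishevelled adaptor below Frizzled, fell by 0.45 with dilatation (limma adjusted p = 0.035) and by 0.52 without (limma adjusted p = 0.0476). Tcf7l2, a DNA-binding partner of beta-catenin, fell by 0.45 with dilatation (limma adjusted p = 0.0332) and by 0.56 without (limma adjusted p = 0.0385). Ctnnb1, beta-catenin itself, did not pass, at 0.28 with dilatation (limma adjusted p = 0.354) and 0.26 without (limma adjusted p = 0.486).

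Of 12 other Wnt targets 7 were above background, of which 2 rose in dilated aorta and 1 without dilatation. Ccnd1, the cell cycle gene cyclin D1, measured 4720.2, 3507 and 4643 in dilated aortas, 1177 and 1954 without dilatation and 686, 852 and 749 in normal ones. The 3 groups did not overlap, in the same order as for Sfrp1. It rose by 2.41 with dilatation (SE 0.20, limma adjusted p = 0.000298) and by 0.95 without (SE 0.22, limma adjusted p = 0.0337). Nkd2, a feedback inhibitor that binds Dishevelled, rose by 0.60 with dilatation (limma adjusted p = 0.0432), and at 65.6 and 132 without dilatation its mean was 0.31 above normal (limma adjusted p = 0.32).

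Relatives of Ccn4 moved in both directions. Ccn5, once named Wisp2, measured 5801, 3164 and 5424 in dilated aortas, 1074 and 1453 without dilatation and 839, 1601 and 1018 in normal ones. It rose by 2.01 with dilatation (SE 0.28, limma adjusted p = 0.00251), and the other MPS VII aortas overlapped with normal (log2 difference 0.16, limma adjusted p = 0.758). Ccn1, an immediate early member of the family, fell in dilated aorta to 394 ± 147, against 1057 ± 49.3 in normal aorta (limma adjusted p = 0.0104), and was -0.93 from normal without dilatation (limma adjusted p = 0.0824). Ccn2 did not pass, at -0.14 with dilatation (limma adjusted p = 0.552) and -0.36 without (limma adjusted p = 0.208). It measured 63380, 57458.8 and 41928 in dilated aortas, 48443.3 and 43648.5 without dilatation and 59650.5, 59650.5 and 57458.8 in normal ones. Normal replicates 1 and 2 share a value, and at such high intensities a difference may be understated, which was not tested.

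**Figure D3:**
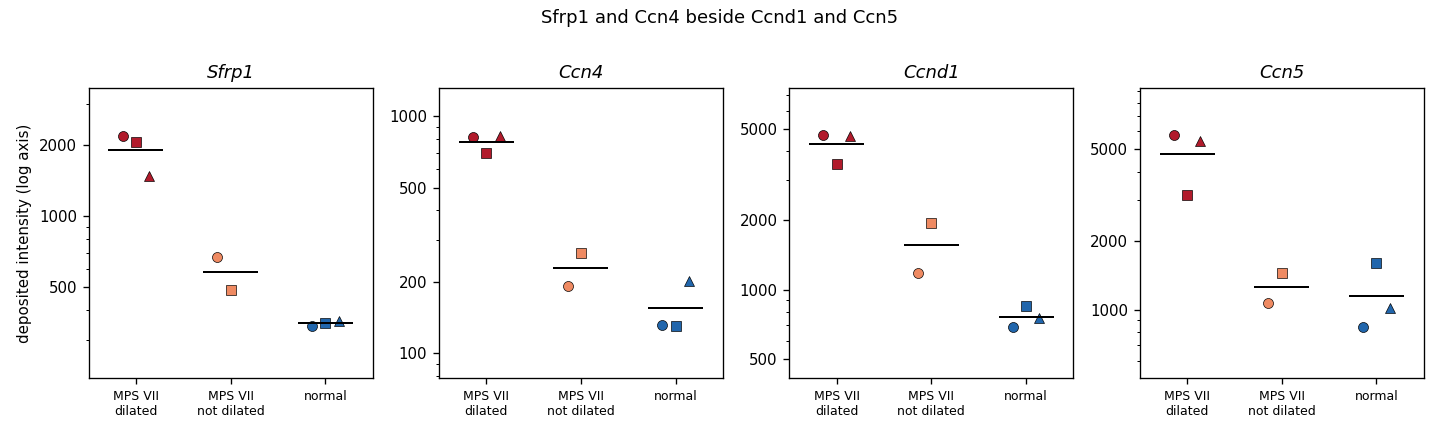
Deposited intensity (log axis) of Sfrp1, Ccn4, Ccnd1 and Ccn5 in each mouse, with 1 shape per replicate number and group means as lines. All 3 dilated aortas lie above the other 5 for each of the 4 genes, and Ccn5 without dilatation lies within the range of normal aorta.

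**Figure D4:**
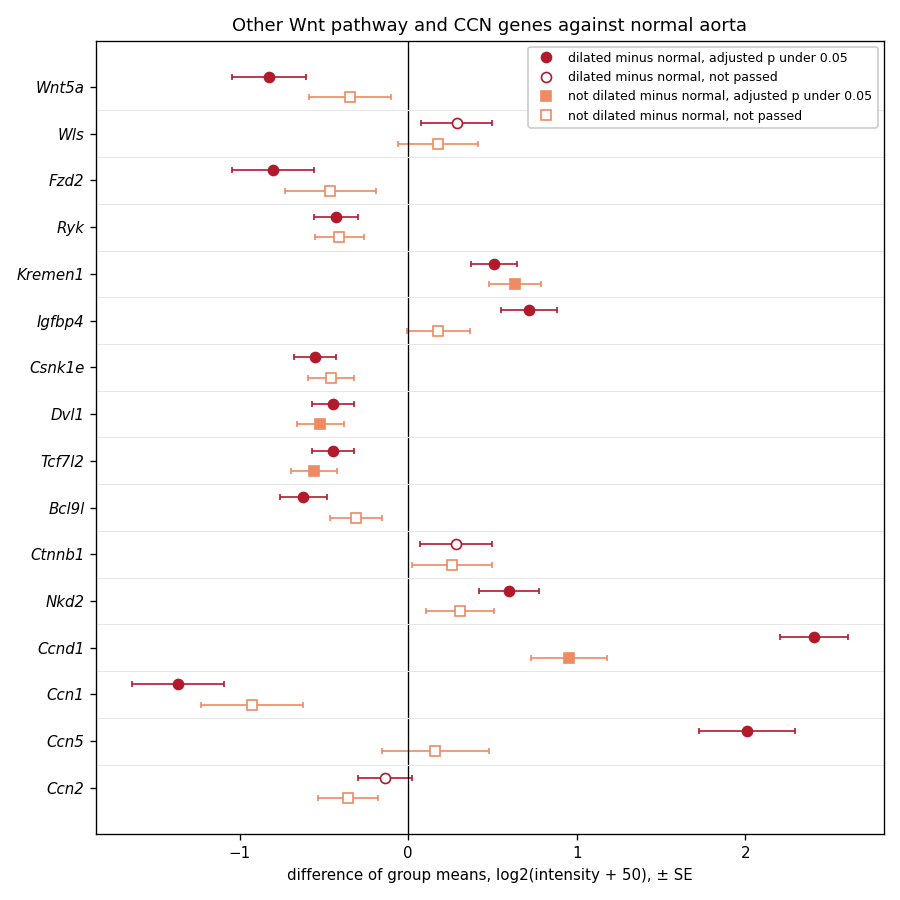
Log2 differences from normal aorta, on the scale of log2(intensity + 50) with limma's SE as bars, for the named genes outside the 9; circles are dilated and squares not dilated MPS VII aorta, filled where limma's adjusted p was under 0.05. Ccnd1 and Ccn5 stand at 2.41 and 2.01 in dilated aorta, and the filled points below 0 are Wnt5a, Fzd2, Ryk, Csnk1e, Dvl1, Tcf7l2, Bcl9l and Ccn1.

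Of the 13 genes called in dilated aorta, Ccnd1, Ccn5, Ccn1 and Csnk1e passed under each of the 19 alternatives (highest adjusted p 0.00387, 0.0174, 0.0398 and 0.0479). The call of Bcl9l ended without normal replicate 3 (limma adjusted p = 0.0537), that of Igfbp4 without normal replicate 1 or 3 (up to 0.0702) and that of Wnt5a without dilated replicate 2 or 3 or normal replicate 1 or 3 (up to 0.0909). Those of Kremen1 and Nkd2 ended without any 1 of the 6 dilated and normal arrays (up to 0.091 and 0.129), that of Dvl1 without any of these but dilated replicate 1 (up to 0.1) and that of Tcf7l2 without any but dilated replicate 2 (up to 0.0911). That of Ryk ended without any 1 of the 8 arrays (up to 0.123) and that of Fzd2 without any but dilated replicate 1 (up to 0.134), with a log2 difference of -0.50 without dilated replicate 3. For dilated against normal aorta, leaving out either not dilated array gave the same result as comparing only the 2 groups. These alternatives are therefore 1 check and not separate ones. The 4 calls without dilatation ended more often, Ccnd1 without any 1 normal array or not dilated replicate 2 (up to 0.14, log2 difference 0.60 without the last), and Kremen1, Dvl1 and Tcf7l2 without any 1 of the 5 normal and not dilated arrays (up to 0.157, 0.268 and 0.175), Kremen1 also without dilated replicate 2 and Dvl1 also without dilated replicate 1 or 2. Without not dilated replicate 2 the log2 difference of Kremen1 was 0.41. The 11 other settings include 1 that used only the arrays of the 2 groups compared. Of these 11, calls in dilated aorta also ended under 5 for Ryk, 4 each for Dvl1 and Fzd2, 3 each for Tcf7l2 and Nkd2, and 1 each for Kremen1 and Wnt5a. Without dilatation they ended under 7 for Dvl1, 5 for Tcf7l2, 3 for Kremen1 and 2 for Ccnd1. With array weights Ctnnb1 passed as higher in dilated aorta (log2 difference 0.55, limma adjusted p = 0.0263). Without dilatation Ccn1 passed as lower with the replicate number as a block (limma adjusted p = 0.0433), with age as a covariate (0.044) and without not dilated replicate 2 (0.0407). Csnk1e passed there as lower with an offset of 100 (limma adjusted p = 0.0455) and without dilated replicate 3 (0.0427).

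Markers of several cell types moved with the groups, and their part in the differences above was not tested. The marker lists too were chosen with earlier results of these data known. Of 10 macrophage markers above background, 9 rose and 0 fell in dilated aorta and 6 rose without dilatation. Of all genes 9.82% rose and 10.4% fell with dilatation, and 4.84% rose and 5.17% fell without, and the other marker lists are to be read against the same shares. The summed intensity of the macrophage markers was 13826 to 21559 in dilated aortas, 5896 to 9706 without dilatation and 1708 to 3421 in normal ones, the same order of groups as for Sfrp1 and Ccnd1, while Cd68 and Csf1r were not among the genes tested. Of 11 adventitial fibroblast markers 6 fell in each MPS VII group and 0 rose, with sums of 12947 to 16600.3 in dilated aortas, 11604 to 14093 without dilatation and 22184 to 24261 in normal ones. Of the 12 smooth muscle markers 10 fell in dilated aorta and 2 without dilatation, with sums of 53963 to 98135 in dilated aortas, 77399 to 103670.0 without dilatation and 117329 to 147028 in normal ones. For the fibroblast and the smooth muscle list alike, the MPS VII groups overlapped and lay below normal, the arrangement seen for Wif1 and Sfrp2. Lying below normal was common, at 24.6% of all genes with dilatation and 30.5% without. Median log2 differences with and without dilatation were -1.13 and -0.78 for smooth muscle and -0.75 and -0.71 for fibroblast markers. Those of Wif1 were -2.88 and -3.01, and those of Sfrp2 -0.41 and -0.57. Of 9 adipocyte markers 5 rose with and 6 without dilatation, with sums of 22785 to 41067 in dilated aortas, 32146 to 52237 without dilatation and 7341 to 16819 in normal ones.

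Of 11 endothelial markers 5 rose in dilated aorta and 3 without dilatation, with sums of 5903 to 11596 in dilated aortas, 6618 to 7679 without dilatation and 4096 to 5695 in normal ones. Cardiac muscle markers, which would show attached heart tissue, had 0 of 6 passing in either comparison, with sums of 790.0 to 1493 in dilated aortas, 860 to 1133 without dilatation and 808 to 846 in normal ones. Both sums without dilatation lay above the normal ones, and Myh7, Tnnt2 and Tnni3 were not among the genes tested. Of 4 chondrocyte and valve markers 1 rose and 1 fell in dilated aorta and 1 fell without dilatation, with sums of 468 to 1209 in dilated aortas, 273 to 277 without dilatation and 326 to 447 in normal ones. Of 4 Schwann cell and neural markers 1 rose in dilated aorta and 0 without dilatation, with sums of 3149 to 3168 in dilated aortas, 2455 to 2792 without dilatation and 2851 to 3167 in normal ones.

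**Figure D5:**
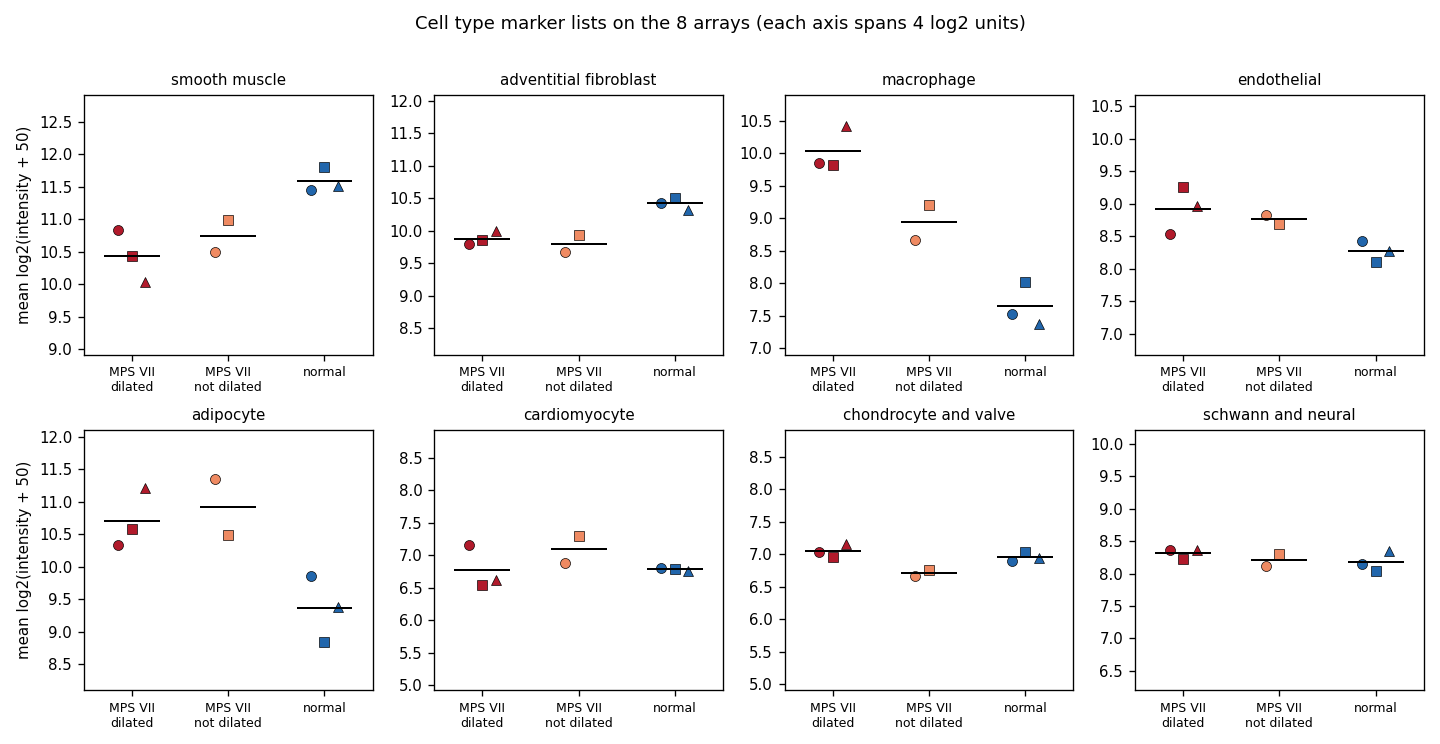
Mean log2(intensity + 50) of 8 cell type marker lists in each mouse, with 1 shape per replicate number and group means as lines; each axis spans 4 log2 units from its own start. Macrophage markers are highest in the 3 dilated aortas, smooth muscle and fibroblast markers are highest in the 3 normal ones, and cardiac markers of the 3 dilated aortas span the normal ones, with both aortas without dilatation above normal.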

How the data were processed

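Illumina bead array values of 8 mouse ascending aortas were analysed, 3 dilated MPS VII, 2 not dilated MPS VII and 3 normal. The deposited values are intensities on a linear scale, background-subtracted (27.8% to 28.0% lie below 0 on each array) with array medians of 17.75 to 17.99. Exact values recur across arrays, so a step that gave the arrays a common distribution is likely, though none is named. The submitters' processing notes list GenomeStudio and Partek without saying what each did, and a build or any further step was not given in the sources used here. A second table, with 16 columns of per-sample values whose names match no single sample, was not used.

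The 9 genes, the marker and pathway lists and the tests were chosen with earlier results of these data known. Probe symbols came from the platform annotation, and all 23141 probes with a symbol matched the RefSeq gene table of GRCm38.p6 by Entrez identifier. The values below 0 gave the noise (SD 11.0) and, at a one-sided 0.01, the background bound of 25.6. Probes above it on at least 2 arrays were kept (12913), with 1 probe per gene, that of the highest mean, leaving 10040 genes (8955 named). Log2(intensity + 50) was fitted with a mean per group over all 8 arrays in limma 3.58.1 (R 4.3.3, 5 residual and 4.05 prior degrees of freedom), with two-sided Benjamini-Hochberg adjustment over all genes. The fit was first run on simulated data with independent noise and known shifts, which checks the code and says nothing of how reliable the calls here are. An exact permutation test of 3 against 3 arrays could not go below p = 0.1, so limma's model carries the tests, and the number of arrays limits the precision. Neqc and detection p-values were not used, since they need the second table.

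Named were all 9 genes, each listed pathway gene called in any comparison, the gene of highest mean in each list, and the 3 genes closest to Wif1 and to Ccn4 by RMS difference. Of the 19 alternatives, 8 left out 1 array each and 11 changed the offset, filter, probes, normalization, weights, covariates, block or samples. Replicate numbers do not mark shared litters or days in the labels and not every same-numbered pair deviated together, so no block was used.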

Additional observations from a re-analysis of the deposited data

How the results depend on the processing

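The log2 differences of the 7 genes above background kept their sign for Wif1, Sfrp1, Sfrp2, Dkk3 and Ccn4 in all 3 comparisons under the 19 alternatives. Axin2 and Frzb did not in some comparisons. For Axin2 the differences there were small. For Frzb the sign turned between dilated and not dilated aorta, where the main difference was -0.08 and the alternatives ran from -0.74 to 0.33. The count of 2032 genes called in dilated against normal aorta was 3324 with array weights and 1089 to 1950.0 with 1 array left out, and that of pathway genes, 13, was 4 to 11 with 1 array left out, with 4 without normal replicate 3 and 5 without normal replicate 1. Without dilatation the count of 1005 was 81 to 1538 with 1 array left out, 81 without not dilated replicate 1, and the 4 pathway genes became 0 to 5 with 1 array left out, 1 with offset 16 or with sex as a covariate, and 2 with cyclic loess or with only the 2 groups compared. Between dilated and not dilated aorta the count of 0 became 3 with offset 100, 4 without the filter on dim probes, 3 with array weights and 19 with sex as a covariate (2 of them pathway genes), and 0 to 3 with 1 array left out. With the replicate number as a block, all 4 pathway genes called without dilatation lost their call and 1 other, Ccn1, gained it, so that their count was 1, and the 13 in dilated aorta became 11. Same-numbered arrays had correlations of their deviations from -0.193 to 0.333 over 7 pairs, so not every pair deviated together. Between not dilated and normal aorta they were 0.333 and 0.298, and there same-numbered mice also share their sex and are near in age. Deviations of the 2 not dilated arrays from their mean mirror each other, so these 2 values are not separate. Signs turned for uncalled genes only: in dilated aorta Ctnnb1 with age as a covariate (-0.0441) and Ccn2 without dilated replicate 3 (0.0347; -0.263 to 0.0347 with 1 array left out), and without dilatation Wls with the replicate block (-0.01414) and without normal replicate 3 (-0.0243 to 0.339 with 1 array left out), Nkd2 without not dilated replicate 2 (-0.0215 to 0.636), and Ccn5 without not dilated replicate 2 (-0.0477 to 0.416) or normal replicate 1 (-0.03103). The causes were not tested.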
